A study of Homo sapiens with 6 samples.

Results

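The HOX genes of human fibroblasts were examined in libraries labelled 4OHT and DMSO, in a design for switching on oncogenic RAS with a drug. They were taken as every entry of the expression table whose symbol is HOX, a cluster letter from A to D and a number, with antisense genes left out, which gave 39 of 59050 entries: 11 in HOXA, 10 in HOXB, 9 in HOXC and 9 in HOXD. The 20 HOX genes that averaged 1 TPM or more across all 6 libraries were compared between the groups. The cells were HFF, a line labelled as fibroblast whose name usually stands for human foreskin fibroblasts. Per the design text, HFF at about passage 18 were infected with a lentiviral vector for ER:RAS (G12V), packaged in HEK293T cells, and selected with 200 µg/ml neomycin. The DMSO libraries are taken here to come from these cells too, which the labels do not state. ER:RAS is a fusion of mutant H-RAS with the hormone-binding part of the oestrogen receptor, so that its activity depends on added 4-hydroxytamoxifen. The 3 libraries labelled 4OHT come from cells given 100 nM 4-hydroxytamoxifen and harvested a week later, when they were described as senescent, and the 3 libraries labelled DMSO are the comparison, DMSO being the usual solvent of that drug. No libraries of cells with the drug but without ER:RAS were analysed here, so effects of the drug and of RAS cannot be told apart. Whether the selected cells were kept as a pool or as single clones, and whether replicates came from separate cultures, is not stated, so a p-value here reflects the spread among these 6 libraries and no more.

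HOX genes encode homeodomain transcription factors that specify position along the body axis in the embryo. They lie in 4 clusters, and within a cluster the gene order on the chromosome follows the paralogue number: low numbers are used toward the head, high numbers toward the tail, the genital region and the ends of the limbs. Adult fibroblasts keep a HOX pattern in culture that reflects the body site they were taken from, and HOXA13 and HOXD13 are needed in the mouse for formation of the genital tubercle and the digits. The clusters are held in active or silent states by the Trithorax and Polycomb chromatin proteins, and HOX proteins bind DNA together with PBX and MEIS cofactors.

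The libraries showed a HOX pattern weighted toward the posterior end. Of the 16 genes with paralogue numbers 9 to 13, 11 had a mean of at least 1 TPM, against 9 of the 23 genes with numbers 1 to 8. All 3 genes at position 10 and all 3 at position 11 passed this level, while none at positions 3 and 12 did. TPM is a share of all transcripts scaled for transcript length, so levels of different genes can be set side by side. The 5 genes above 10 TPM were HOXA11 with a mean of 52.7 TPM over the 6 libraries, HOXA10 with 48.5 TPM, HOXA9 with 25.5 TPM, HOXA13 with 17.8 TPM and HOXC10 with 17.1 TPM. At the threshold itself, HOXA6 stood just inside with a mean of 1.03 TPM and HOXA3 just outside with 0.804 TPM.

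The highest HOX transcripts differ even in the stretch of the coding sequence where HOX genes are most alike. The 42 bases below encode most of the third, DNA-contacting helix of the homeodomain, and they are shown because their differences let short reads be assigned to a gene. They come from GENCODE 29 transcripts, with capitals for bases that differ from HOXA10.
HOXA11: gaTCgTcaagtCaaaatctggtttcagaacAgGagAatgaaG
HOXA10: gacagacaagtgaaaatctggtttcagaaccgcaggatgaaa
HOXA13: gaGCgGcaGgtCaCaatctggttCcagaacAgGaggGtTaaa
HOXC10: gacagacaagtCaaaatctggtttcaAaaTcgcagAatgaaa
HOXC10 differed from HOXA10, its paralogue in the other cluster, at 4 of the 42 bases, HOXA11 at 8 and HOXA13 at 11. Over whole transcripts, none of the 20 compared genes shared a run of 50 bases with a HOX gene of another cluster.

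HOXA (chr7:27092993-27200106, GRCh38) was the most widely used cluster, with 9 of its 11 genes at 1 TPM or more. HOXD (chr2:176092891-176190907) had 5 of 9 genes at this level and HOXC (chr12:53938765-54056030) 4 of 9. HOXB (chr17:48528526-48729178) had 2 of 10, HOXB2 and HOXB13, from opposite ends of the cluster. HOXB13, known for its role in the prostate and the posterior body, was low, and the 7 HOXB genes other than HOXB2, HOXB3 and HOXB13 were listed at 0 in at least 1 library.

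**Figure D1:**
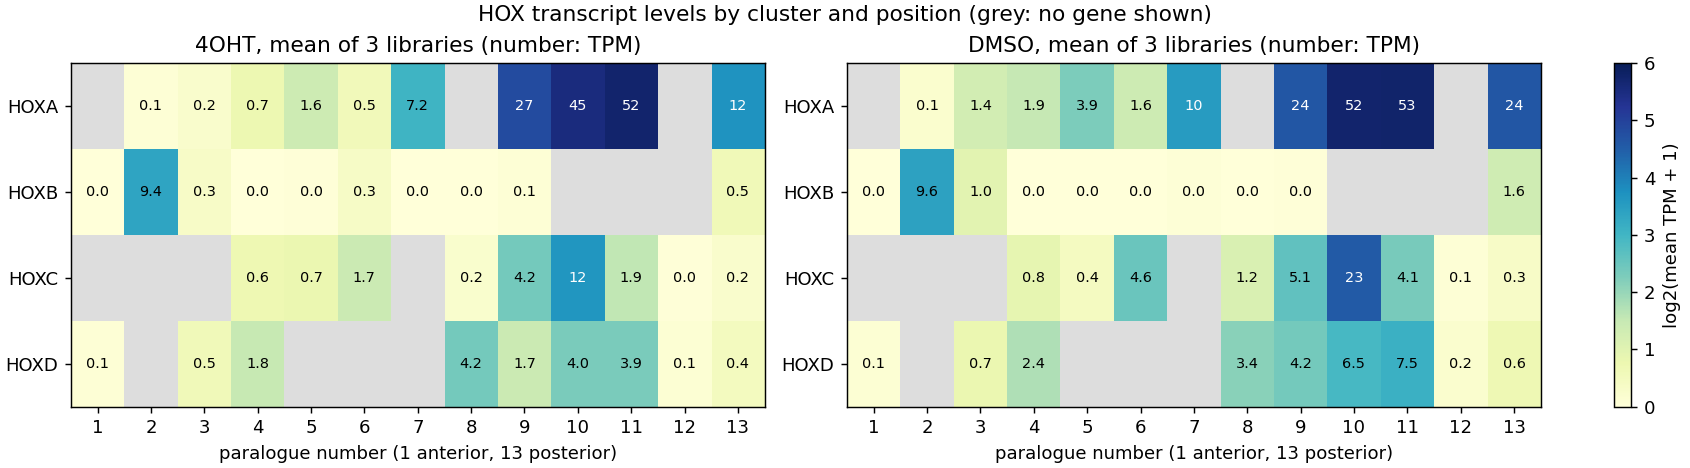
Mean TPM of HOX genes on a colour scale of log2(mean TPM + 1), by cluster (rows) and paralogue number (columns), in 4OHT libraries (left) and DMSO libraries (right), 3 libraries each. The darkest cells are HOXA9 to HOXA11 in both groups, and HOXA13 and HOXC10 are lighter in 4OHT libraries, at 12 and 11.6 TPM, than in DMSO libraries, at 23.6 and 22.7 TPM.

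Of the 20 compared HOX genes, 12 were lower in 4OHT libraries and none was higher (limma on log2(TPM + 1), Benjamini-Hochberg adjusted over 15272 genes, threshold 0.05). At an unadjusted p under 0.05, 13 were lower and 0 higher. Across all genes compared, 29.9% were lower and 19.8% higher by the same test, 49.6% in either direction. The median log2 fold change, 4OHT minus DMSO, was -0.66 over the 20 HOX genes and -0.09 over all genes. HOXA4, HOXA6 and HOXB13 reached the 1 TPM level only through the DMSO libraries and so had to differ, and with no such filter 10 of all 39 HOX genes were lower, against 4108 of 36814 genes in all. On this scale a gene at a low level shows less change than its TPM do. Among genes with a mean from 1 to under 5 TPM, 7 of 11 HOX genes and 26% of all genes were lower. Among genes of at least 5 TPM these were 5 of 9 HOX genes and 31.3% of all genes. Scaling the libraries by the median of ratios moved the log2 fold change of the median gene up by 0.113 and gave 11 HOX genes lower and none higher, with 3591 lower and 4036 higher among all genes, against 4561 lower and 3018 higher as deposited. Quantile normalization gave 7 HOX genes lower and 1, HOXD8, higher, with 3604 lower and 3650 higher among all genes.

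The calls did not run evenly along the clusters. In HOXA, HOXA4 to HOXA7 and the last gene, HOXA13, were called lower, while HOXA9, HOXA10 and HOXA11 between them were not called. This pattern depends on the filter and the threshold. HOXA4 and HOXA6 reached the 1 TPM level only through the DMSO libraries, and kept the call in 3 and 5 of 12 alternatives. HOXA10 missed the limma threshold at an adjusted p of 0.0512 and was called lower in 4 of 13 alternatives. In HOXC and HOXD, the genes called lower were HOXC6, HOXC10 and HOXC11 and the neighbours HOXD9, HOXD10 and HOXD11. Of positions 9 to 13, 7 of 11 genes were lower, and of positions 1 to 8, 5 of 9, against 29.9% of all genes compared.

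**Figure D2:**
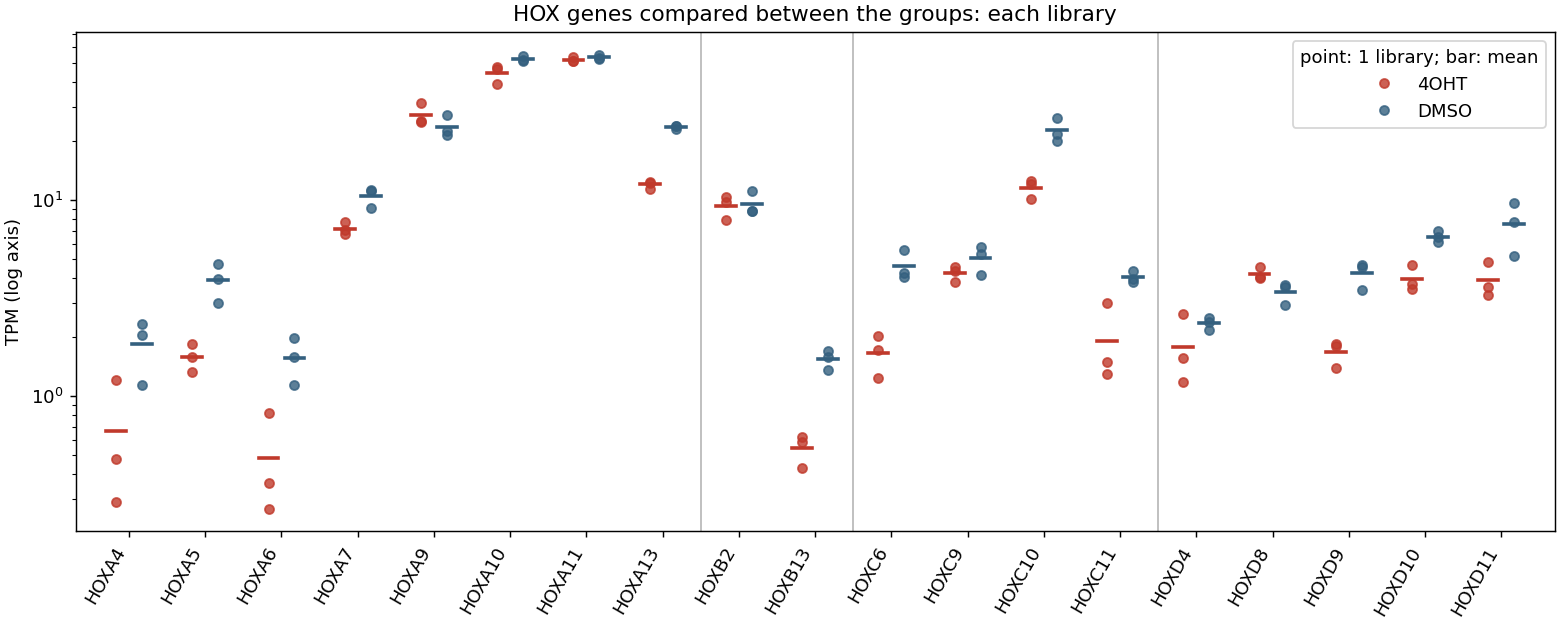
TPM of compared HOX genes on a log axis, 1 point per library and a bar at the mean, 4OHT left and DMSO right for each gene. HOXA13 shows a clear gap with little spread within the groups, with 4OHT libraries between 11.4 and 12.4 TPM and DMSO libraries between 23.0 and 23.9 TPM, whereas the points of HOXA11 lie together.

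HOXA13, the most posterior gene of its cluster, measured 12.4, 11.4 and 12.3 TPM in 4OHT libraries, against 23.9, 23.8 and 23.0 TPM in DMSO libraries. All 4OHT libraries lay below all DMSO libraries, with little spread within either group. The log2 fold change was -0.92 (SE 0.0688, adjusted p = 4.26e-05), and the 4OHT mean was 0.51 times the DMSO mean. HOXA13 was called lower under every alternative tried, with adjusted p from 2.9e-05 to 0.00089.

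HOXA11, the highest HOX gene and a regulator of the middle limb segment and the reproductive tract, measured 50.9, 53.7 and 51.4 TPM in 4OHT libraries, against 55.0, 53.1 and 52.3 TPM in DMSO libraries. The groups overlapped and the log2 fold change was -0.04 (SE 0.0504, adjusted p = 0.569), which turned to 0.08 under median-of-ratios scaling. HOXA10, which acts in the uterus, the hindlimb and blood progenitors, measured 39.2, 47.8 and 46.8 TPM in 4OHT libraries, against 51.1, 52.1 and 54.2 TPM in DMSO libraries. All 4OHT values were below all DMSO values, and the difference of -0.23 narrowly missed the threshold (SE 0.0832, adjusted p = 0.0512). HOXA10 was called lower in 4 of 13 alternatives. The adjusted p was 0.042 without 4OHT replicate 2, 0.041 under quantile normalization, and 0.047 both with the 5 TPM filter and with the replicate block. Median-of-ratios scaling gave -0.12 with an adjusted p of 0.26. Without 4OHT replicate 1 the log2 fold change was -0.15 with an adjusted p of 0.093, and without 4OHT replicate 2 it was -0.29. HOXA9, best known from blood stem cells and leukaemia, measured 25.4, 25.0 and 31.3 TPM in 4OHT libraries, against 21.4, 22.6 and 27.1 TPM in DMSO libraries. These groups overlapped, with a log2 fold change of 0.19 (SE 0.12, adjusted p = 0.229).

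HOXA9 and HOXA10 overlap on the same strand, and a read-through transcript that joins them has an entry of its own, AC004080.3. It was listed at 4.35, 1.52 and 0 TPM in 4OHT libraries and at 0 in all 3 DMSO libraries. The 3 entries together came to 68.9, 74.3 and 78.1 TPM in 4OHT libraries and to 72.5, 74.7 and 81.3 TPM in DMSO libraries. With the read-through entry added, an alternative chosen after seeing the data, HOXA9 had a log2 fold change of 0.29 (adjusted p = 0.056) and HOXA10 one of -0.17 (adjusted p = 0.057).

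Genes of the middle of the cluster were lower. HOXA5, which patterns the lung and the cervical to thoracic spine in the mouse, measured 1.58, 1.85 and 1.33 TPM in 4OHT libraries, against 3.0, 3.97 and 4.75 TPM in DMSO libraries. The groups were apart, and the log2 fold change was -0.91 (SE 0.179, adjusted p = 0.00466). HOXA7, a gene of the trunk region, measured 7.06, 7.76 and 6.69 TPM in 4OHT libraries, against 11.1, 11.2 and 9.16 TPM in DMSO libraries. It was lower by -0.49 (SE 0.111, adjusted p = 0.00884), with no overlap. Of its 50-base stretches 61.9% are also those of HOXA-AS3, an antisense RNA at means of 0.0882 TPM in 4OHT and 0.401 TPM in DMSO libraries, and since the strand setting of the quantification is not given, reads of the pair may not have been separated.

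HOXA6 measured 0.363, 0.268 and 0.823 TPM in 4OHT libraries, against 1.58, 1.98 and 1.14 TPM in DMSO libraries. The groups did not overlap, and the log2 fold change was -0.79 (SE 0.226, adjusted p = 0.0228). HOXA4 measured 0.482, 0.289 and 1.22 TPM in 4OHT libraries, against 1.14, 2.34 and 2.06 TPM in DMSO libraries. It was the only called HOX gene whose groups overlapped, since 4OHT replicate 3 lay above DMSO replicate 1, and its fold change of -0.79 was just past the threshold (SE 0.276, adjusted p = 0.0486). Both are anterior to middle genes of the trunk pattern, and both calls depended on which libraries were included. The adjusted p of HOXA4 was 0.12 without 4OHT replicate 1, 0.13 without 4OHT replicate 2, 0.14 without DMSO replicate 2 and 0.13 without DMSO replicate 3. That of HOXA6 was 0.064 and 0.068 without 4OHT replicates 1 and 2, and 0.061 and 0.079 without DMSO replicates 1 and 2.

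HOXC10, the main gene of its cluster here and a marker of posterior and hindlimb identity, measured 12.4, 12.1 and 10.1 TPM in 4OHT libraries, against 26.4, 21.8 and 20.0 TPM in DMSO libraries. No values overlapped, and the log2 fold change of -0.91 (SE 0.125, adjusted p = 0.000862) was close to that of HOXA13. HOXC6, a thoracic gene, measured 1.25, 2.03 and 1.72 TPM in 4OHT libraries, against 5.58, 4.04 and 4.25 TPM in DMSO libraries. Its log2 fold change of -1.08 (SE 0.176, adjusted p = 0.00198) was the largest among the 20 compared HOX genes at a pseudocount of 1, again with no overlap. By the ratio of mean TPM, HOXA6 (0.309), HOXB13 (0.352) and HOXA4 (0.358) were further down than HOXC6 (0.36). HOXC11 measured 1.5, 2.99 and 1.29 TPM in 4OHT libraries, against 4.38, 3.95 and 3.84 TPM in DMSO libraries. The groups of this lumbosacral gene did not overlap, and it had a log2 fold change of -0.83 (SE 0.223, adjusted p = 0.0181), with an adjusted p of 0.056 without 4OHT replicate 1, 0.052 without 4OHT replicate 3 and 0.058 without DMSO replicate 1. HOXC9, a thoracic gene between them, was not called: it measured 4.33, 4.55 and 3.83 TPM in 4OHT libraries, against 5.29, 5.76 and 4.18 TPM in DMSO libraries, which overlap (log2 fold change -0.21, SE 0.139, adjusted p = 0.256).

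In HOXD, HOXD9 measured 1.84, 1.80 and 1.40 TPM in 4OHT libraries, against 4.68, 4.58 and 3.47 TPM in DMSO libraries. The groups stood apart, with a log2 fold change of -0.96 (SE 0.157, adjusted p = 0.00197). HOXD10 measured 3.54, 4.68 and 3.73 TPM in 4OHT libraries, against 6.46, 6.11 and 6.99 TPM in DMSO libraries (log2 fold change -0.60, SE 0.127, adjusted p = 0.00675). HOXD11 measured 3.62, 4.87 and 3.28 TPM in 4OHT libraries, against 5.22, 7.74 and 9.65 TPM in DMSO libraries. In both genes all 4OHT values were below all DMSO values. The log2 fold change of HOXD11 was -0.77 (SE 0.22, adjusted p = 0.023), and its adjusted p was 0.064 and 0.072 without 4OHT replicates 1 and 3, and 0.066 and 0.069 without DMSO replicates 2 and 3. HOXD9 to HOXD11 are the limb-patterning block of the cluster, and HOXD10 and HOXD11 share 15.2% and 19.8% of their 50-base stretches with each other, so their reads could be split between them.

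HOXD8, next to HOXD9 on the anterior side, was not called. It measured 4.54, 4.04 and 4.03 TPM in 4OHT libraries, against 2.94, 3.61 and 3.72 TPM in DMSO libraries, so that all 4OHT values lay above all DMSO values (log2 fold change 0.24, SE 0.128, adjusted p = 0.165). Under quantile normalization it was higher, by 0.50 with an adjusted p of 0.016. HOXD4, a gene of the hindbrain and neck level, measured 1.18, 1.58 and 2.62 TPM in 4OHT libraries, against 2.17, 2.39 and 2.52 TPM in DMSO libraries, with overlap (log2 fold change -0.30, SE 0.211, adjusted p = 0.279). Since 76.5% of its 50-base stretches are also those of a same-strand transcript, AC009336.2, its level is uncertain.

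Of the 2 compared HOXB genes, 1 was called lower. HOXB13 measured 0.623, 0.582 and 0.432 TPM in 4OHT libraries, against 1.58, 1.71 and 1.36 TPM in DMSO libraries. These low values did not overlap, and the log2 fold change was -0.72 (SE 0.169, adjusted p = 0.0103). HOXB2, a hindbrain gene at the other end of the cluster, measured 9.77, 10.4 and 7.88 TPM in 4OHT libraries, against 11.1, 8.80 and 8.81 TPM in DMSO libraries. The groups overlapped, and the log2 fold change of -0.03 (SE 0.137, adjusted p = 0.869) changed sign with the scaling or with a left-out library.

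All 4OHT libraries lay below all DMSO libraries in 12 of the 20 compared HOX genes, and above them in 1. Groups stood apart with 4OHT below in 35.2% of all compared genes (59% in either direction). Of the 12 HOX genes called lower, 11 had such groups. HOXA5, HOXA13, HOXB13, HOXC6, HOXC10 and HOXD9 were called lower under every alternative in which they were compared, and the 6 others lost the call under at least 1. HOXA5, HOXB13, HOXC6 and HOXD9 were not compared under the filter of 5 TPM. HOXB13 reached the 1 TPM level only through the DMSO libraries.

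**Figure D3:**
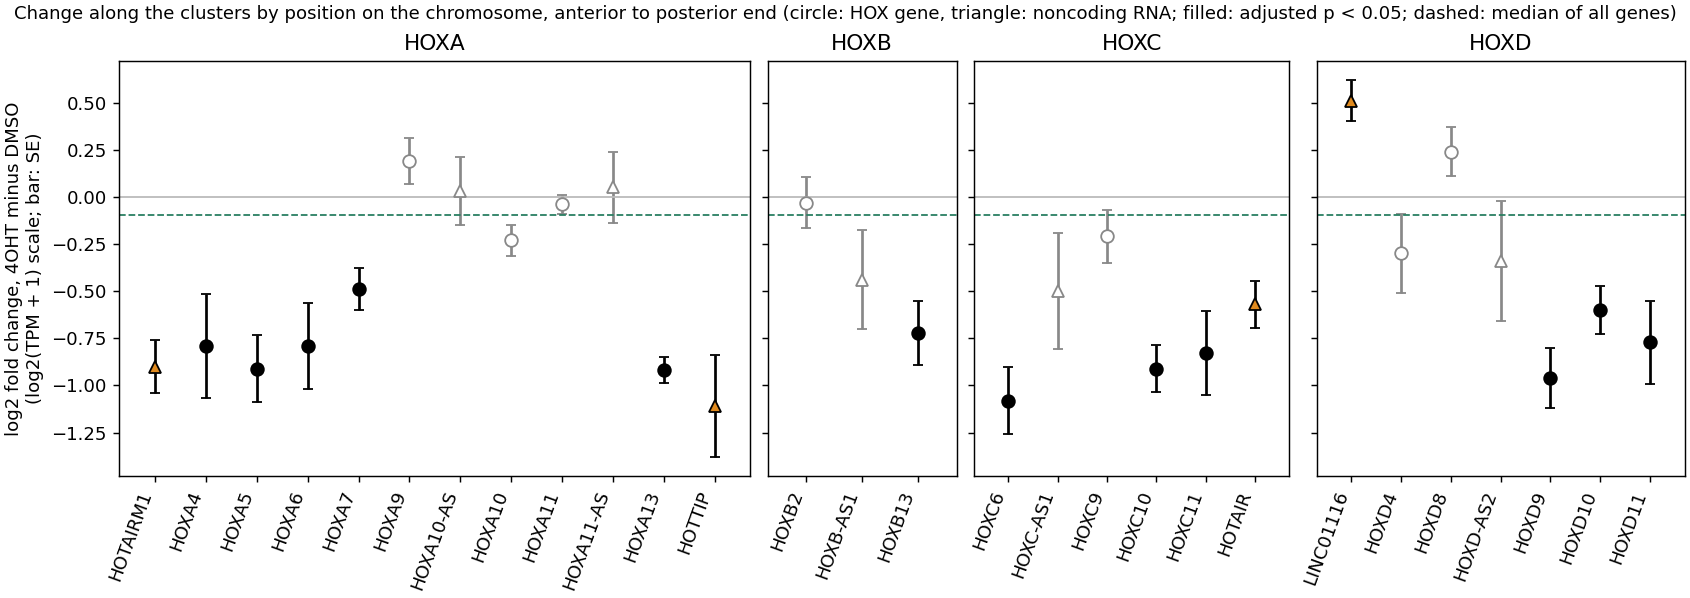
Log2 fold change (4OHT minus DMSO, log2(TPM + 1) scale, bar: SE) of compared HOX genes (circles) and of noncoding RNAs in or near the clusters (triangles), ordered along each cluster from the anterior to the posterior end, with filled symbols past the threshold. HOXA9 to HOXA11 sit near the median of all genes (dashed), between the lower HOXA4 to HOXA7 and the lower HOXA13.

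The start regions of HOXA13, HOXA11 and HOXA9 are printed because these near neighbours had unlike calls, and that of HOXD11 because it alone held the HOX-PBX motif. They are the bases just before the annotated start in RefSeq (GRCh38.p14), in gene orientation. Only bases next to the start that are annotated as untranslated regions were left out. The stretches of HOXA9 and HOXD11 lie inside the annotated spans of these genes, so other bases of annotated transcripts can remain. Capitals mark matches, on either strand, to TATAAA, to the HOX-PBX motif TGATTNAT, to CCAAT and to the SP motif GGGCGG.
HOXA13 (chr7:27200107-27200341, minus strand): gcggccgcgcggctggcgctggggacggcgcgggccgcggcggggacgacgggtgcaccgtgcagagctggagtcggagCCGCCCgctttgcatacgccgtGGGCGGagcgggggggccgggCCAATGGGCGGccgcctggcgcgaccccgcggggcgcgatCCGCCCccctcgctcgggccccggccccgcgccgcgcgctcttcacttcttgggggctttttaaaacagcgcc
HOXA11 (chr7:27185233-27185482, minus strand): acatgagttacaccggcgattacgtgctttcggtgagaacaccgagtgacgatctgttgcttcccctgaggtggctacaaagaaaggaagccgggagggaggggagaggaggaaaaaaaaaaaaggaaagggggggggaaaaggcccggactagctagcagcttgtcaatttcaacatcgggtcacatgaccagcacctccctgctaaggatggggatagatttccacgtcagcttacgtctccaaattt
HOXA9 (chr7:27165538-27165787, minus strand): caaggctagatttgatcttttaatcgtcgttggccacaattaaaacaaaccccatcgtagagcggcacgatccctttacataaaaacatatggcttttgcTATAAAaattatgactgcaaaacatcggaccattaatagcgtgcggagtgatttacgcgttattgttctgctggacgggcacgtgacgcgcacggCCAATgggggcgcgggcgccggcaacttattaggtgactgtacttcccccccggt
HOXD11 (chr2:176107030-176107279, plus strand): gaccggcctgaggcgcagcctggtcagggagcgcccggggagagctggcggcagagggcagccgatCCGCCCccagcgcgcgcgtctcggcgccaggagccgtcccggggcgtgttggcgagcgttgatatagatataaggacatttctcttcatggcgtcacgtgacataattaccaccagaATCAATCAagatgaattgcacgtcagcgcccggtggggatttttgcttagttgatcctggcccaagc
In windows of 300 bases around the start, GC content was 76.3% in HOXA13, 51.3% in HOXA11, 48.0% in HOXA9 and 62.3% in HOXD11, against a median of 58.7% over 35116 promoters, and CpG numbered 44, 13, 22 and 27 in the same order. HOXA13 held 4 matches to GGGCGG and a CCAAT, HOXA9 a TATAAA and a CCAAT, HOXA11 none of the 4 motifs, and HOXD11 a GGGCGG and a TGATTNAT. Windows were found for 11 of the 20 compared genes, 12 windows in all. TATAAA stood in 3 of these and in 11.5% of all promoters, TGATTNAT in 1 and 2.82%, CCAAT in 9 and 34.6%, and GGGCGG in 6 and 45%. None of the 12 held the AP-1 motif TGANTCA, the ETS motif CCGGAAGT or the retinoic acid receptor motif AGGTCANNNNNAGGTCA, which stand in 7.71%, 4.14% and 0.0057% of all promoters. A match is a description of letters only.

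The remaining 19 HOX genes had means under 1 TPM and entered only the fit without a filter, not the main comparison. Of these, 10 had means from 0.1 to under 1 TPM and 9 were below 0.1 TPM. In 3 of the 19, all 4OHT libraries lay below all DMSO libraries, and in none above. The share of such groups among all genes under 1 TPM was not computed, so this count is a description only. HOXA3 averaged 0.195 ± 0.133 TPM in 4OHT libraries and 1.41 ± 0.403 TPM in DMSO libraries (SD, n = 3 each). HOXC8 averaged 0.176 ± 0.152 TPM in 4OHT libraries and 1.21 ± 0.467 TPM in DMSO libraries. HOXB3 averaged 0.275 ± 0.17 TPM in 4OHT libraries and 0.975 ± 0.395 TPM in DMSO libraries. These are genes of the neck and thorax levels, low in both groups. HOXC4, HOXC5, HOXC13, HOXD3, HOXD12 and HOXD13 overlapped between groups. HOXD13, the digit and genital partner of HOXA13, measured 0.417, 0.380 and 0.378 TPM in 4OHT libraries, against 0.772, 0.644 and 0.416 TPM in DMSO libraries. The mean of HOXB6 rested on 4OHT replicate 1 at 0.861 TPM, with at most 0.000934 TPM in any other library.

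Summed over a cluster, HOXC transcripts came to 21.6, 23.3 and 18.5 TPM in 4OHT libraries, against 44.6, 38.1 and 34.8 TPM in DMSO libraries, a ratio of means of 0.539. HOXD summed to 15.7, 18.5 and 15.7 TPM in 4OHT libraries, against 22.9, 26.8 and 27.3 TPM in DMSO libraries, a ratio of 0.648. HOXA summed to 139, 150 and 153 TPM in 4OHT libraries, against 172, 174 and 177 TPM in DMSO libraries (ratio 0.845). In these 3 clusters the sums of the groups did not overlap. HOXB summed to 11.7, 11.5 and 8.51 TPM in 4OHT libraries, against 13.5, 11.5 and 11.7 TPM in DMSO libraries (ratio 0.866), with overlap. The share of all HOX transcripts held by HOXA9, HOXA10, HOXA11 and HOXA13 was 67.9%, 67.9% and 72.4% in 4OHT libraries, and 59.8%, 60.5% and 62.4% in DMSO libraries. These sums are descriptions, without a test. In bulk RNA, fewer cells that express a gene and less of its RNA per cell cannot be told apart.

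Of 26 entries for noncoding RNAs of the clusters, microRNA genes among them, 9 were compared. Of these, 3 were lower and 1 higher, a share near the 29.9% lower among all genes. HOTAIR, which lies between HOXC11 and HOXC12 and is known as a marker of posterior and distal fibroblasts, measured 6.16, 4.79 and 6.45 TPM in 4OHT libraries, against 9.11, 9.70 and 8.40 TPM in DMSO libraries. The groups were apart, with a log2 fold change of -0.57 (SE 0.126, adjusted p = 0.00797), but under quantile normalization the change was -0.33 and the adjusted p 0.068. HOTTIP, transcribed from the far end of HOXA beside HOXA13 and known to act on the posterior HOXA genes, measured 0, 0.351 and 0.633 TPM in 4OHT libraries, against 1.86, 2.54 and 1.20 TPM in DMSO libraries (log2 fold change -1.11, SE 0.269, adjusted p = 0.0118). It reached the 1 TPM level only through the DMSO libraries and so had to differ, and its adjusted p ranged from 0.012 to 0.052 over the alternatives. HOTAIRM1, at the anterior end of HOXA, averaged 2.09 ± 0.327 TPM in 4OHT libraries and 4.75 ± 0.468 TPM in DMSO libraries (log2 fold change -0.90, SE 0.14, adjusted p = 0.00158). HOTTIP and HOTAIRM1 were singled out after their values were seen. They lie at opposite ends of HOXA, but no pattern along the cluster is read from them. In the limma fit without a filter, the adjusted p was 0.052 for HOTTIP and 0.0085 for HOTAIRM1.

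The antisense RNAs of HOXA10 and HOXA11 were, like their partners, not called. HOXA11-AS averaged 17.3 ± 1.21 TPM in 4OHT libraries and 17 ± 4.69 TPM in DMSO libraries (log2 fold change 0.05, adjusted p = 0.835). HOXA10-AS averaged 8.48 ± 1.21 TPM in 4OHT libraries and 8.42 ± 2.11 TPM in DMSO libraries (log2 fold change 0.03, adjusted p = 0.923). Both share exon sequence with their partner on the opposite strand, 29% of the 50-base stretches of HOXA11 being also those of HOXA11-AS. LINC01116, outside the HOXD cluster on the HOXD1 side, was higher at 7.16 ± 0.351 TPM in 4OHT libraries and 4.74 ± 0.493 TPM in DMSO libraries (log2 fold change 0.51, SE 0.11, adjusted p = 0.00709). HAGLR, opposite HOXD1 and HOXD3, was below the threshold for testing, at 1.44, 1.57 and 1.5 TPM in 4OHT libraries and 0.577, 0.301 and 0.502 TPM in DMSO libraries.

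Most of the compared cofactors with which HOX proteins bind DNA were lower: of 10 PBX, MEIS, PKNOX and TGIF genes, 7 were lower and 0 higher, in both the adjusted and the unadjusted limma test, against 29.9% and 19.8% of all genes in the adjusted test. The median log2 fold change of the list was -0.48, and 1 of the 7, PBX4, reached the 1 TPM level only through the DMSO libraries. MEIS1 measured 9.11, 6.28 and 8.06 TPM in 4OHT libraries, against 22.5, 23.2 and 22.5 TPM in DMSO libraries (log2 fold change -1.44, SE 0.125, adjusted p = 8.88e-05). MEIS2 measured 18.1, 18.4 and 18.4 TPM in 4OHT libraries, against 47.3, 40.0 and 49.0 TPM in DMSO libraries (log2 fold change -1.26, SE 0.0855, adjusted p = 2.5e-05). In both, the groups were far apart. PBX3, a homeodomain partner of HOX proteins, averaged 23.8 ± 1.31 TPM in 4OHT libraries and 37.8 ± 1.61 TPM in DMSO libraries (log2 fold change -0.65, SE 0.0669, adjusted p = 0.00021). PKNOX1, TGIF1 and TGIF2 were not called.

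Other transcription factors that mark the site of origin of mesenchyme changed in both directions. Of 32 compared, 21 were lower and 5 higher, with a median of -0.68. PITX1, the hindlimb factor, was high in both groups and measured 290, 283 and 302 TPM in 4OHT libraries, against 128, 115 and 117 TPM in DMSO libraries (log2 fold change 1.27, SE 0.0536, adjusted p = 2.74e-06). TBX5, its forelimb counterpart, measured 10.1, 9.69 and 10.7 TPM in 4OHT libraries, against 23.2, 28.4 and 24.8 TPM in DMSO libraries (log2 fold change -1.24, SE 0.0933, adjusted p = 4.28e-05). The groups did not overlap in either gene. TBX4, another hindlimb factor of the list, picked after its values were seen, was lower at 1.34 ± 0.515 TPM in 4OHT libraries and 2.80 ± 0.154 TPM in DMSO libraries (log2 fold change -0.72, SE 0.191, adjusted p = 0.0175), with an adjusted p of 0.054 without DMSO replicate 3 and 0.082 under quantile normalization.

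**Figure D4:**
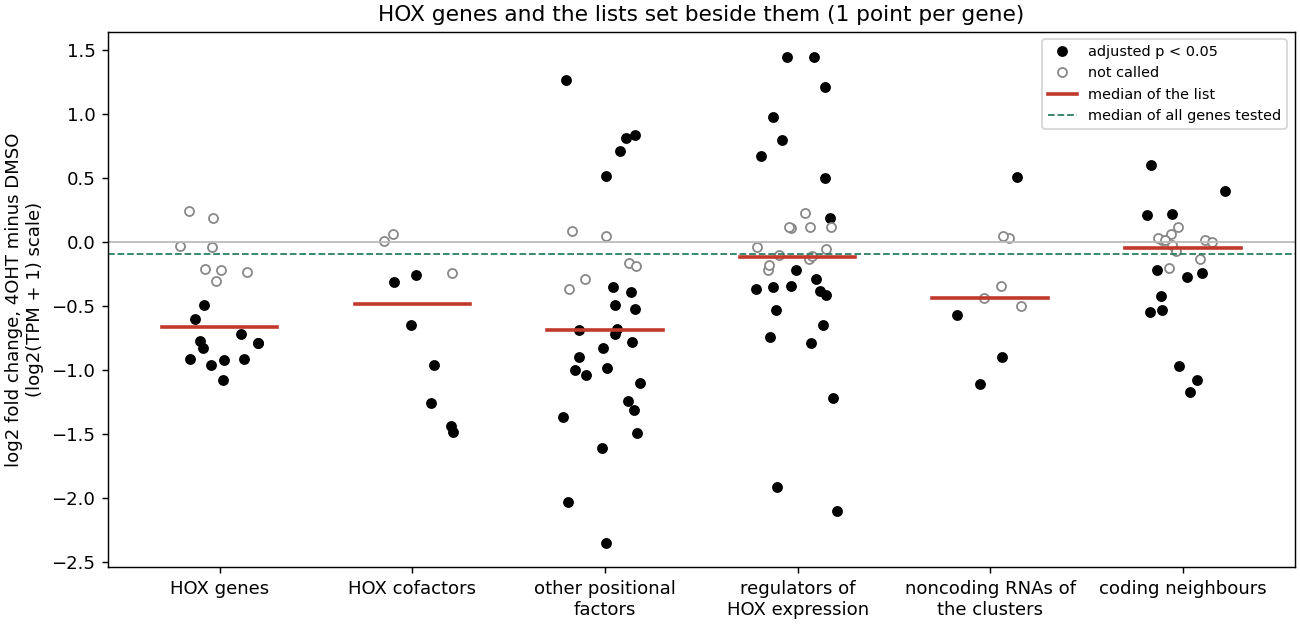
Log2 fold change (4OHT minus DMSO, log2(TPM + 1) scale) of each compared gene in 6 lists, with a red bar at the median of the list and a dashed line at the median of all genes. The medians of the HOX genes (-0.66), their cofactors (-0.48) and other positional factors (-0.68) lie below the dashed line, whereas those of the regulators (-0.12) and coding neighbours (-0.04) lie near it.

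Of 24 compared coding genes beside the clusters 9 were lower and 4 higher, with a median log2 fold change of -0.04, against 29.9% lower, 19.8% higher and a median of -0.09 among all genes. HNRNPA1, an RNA-binding protein gene beyond HOXC, averaged 443 ± 35.5 TPM in 4OHT libraries and 868 ± 82.9 TPM in DMSO libraries (log2 fold change -0.97), while CALCOCO1 on the other side of HOXC averaged 70 ± 6.74 TPM in 4OHT libraries and 45.7 ± 1.38 TPM in DMSO libraries (0.60). At HOXD, HNRNPA3 had a log2 fold change of -0.55, and at HOXB, CDK5RAP3 one of -0.53. EVX1 and EVX2, homeobox genes at the posterior ends of HOXA and HOXD, were at or near 0 in both groups, with means of at most 0.000847 TPM. PRAC2, beside HOXB13, averaged 0.137 TPM in 4OHT libraries and 1.01 TPM in DMSO libraries and was not tested.

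Of 34 compared regulators of HOX expression, 14 were lower and 8 higher, with a median of -0.12. Among all genes, 29.9% were lower and 19.8% higher, with a median of -0.09. CBX2, among the 14, reached the 1 TPM level only through the DMSO libraries. EZH2, the Polycomb methyltransferase, averaged 6.81 ± 0.72 TPM in 4OHT libraries and 32.3 ± 1.4 TPM in DMSO libraries (log2 fold change -2.10), and GMNN, a replication licensing inhibitor that also binds HOX proteins, 17.1 ± 0.427 TPM in 4OHT libraries and 67.1 ± 1.04 TPM in DMSO libraries (-1.91). CDX1, a caudal-type activator of HOX genes in the embryo, and RARB, a retinoic acid receptor, each had a log2 fold change of 1.45, CDX1 with 10.1 ± 0.94 TPM in 4OHT libraries and 3.07 ± 0.535 TPM in DMSO libraries and RARB with 19.7 ± 1.07 TPM in 4OHT libraries and 6.60 ± 0.854 TPM in DMSO libraries. KMT2A, the Trithorax methyltransferase best known for maintaining HOX expression, was not called, at 14 TPM in 4OHT libraries and 13.1 TPM in DMSO libraries.

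Of 20 genes known as targets or partners of HOX proteins, mainly from the mouse limb and genital tubercle, 10 were compared, and 7 were higher and 0 lower in both the adjusted and the unadjusted limma test, with a median of 0.92. BMP2, a growth factor gene that HOXA13 is known to activate in mouse limb buds, averaged 37.9 ± 1.14 TPM in 4OHT libraries and 6.60 ± 0.175 TPM in DMSO libraries (log2 fold change 2.36, SE 0.0679, adjusted p = 5.6e-07). CYP26B1, which degrades retinoic acid, averaged 91.3 ± 0.285 TPM in 4OHT libraries and 3.71 ± 1.9 TPM in DMSO libraries (log2 fold change 4.36). WNT5A, a signal of distal mesenchyme, averaged 513 ± 12.5 TPM in 4OHT libraries and 197 ± 9.25 TPM in DMSO libraries (1.37), and BMP4 55.5 ± 1.62 TPM in 4OHT libraries and 24.7 ± 0.808 TPM in DMSO libraries (1.13).

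The label of fibroblast fitted the markers: all 12 fibroblast markers were compared and summed to 20800 to 21400 TPM in 4OHT libraries and 22100 to 22800 TPM in DMSO libraries. Of the 12, 3 were higher and 8 lower. For this and the marker counts below, the shares among all genes were 19.8% higher and 29.9% lower. Markers of other cell types were unequal between the groups, and a few of them stood well above the HOX genes in level. The 10 keratinocyte markers summed to 129 to 159 TPM in 4OHT libraries and 330 to 352 TPM in DMSO libraries, mostly from KRT18, while KRT5, KRT14, KRT1, CDH1 and TP63 were at or near 0. Of the 4 compared, KRT8 and KRT18 were lower, and KRT10 and KRT15 were not called. KRT10 averaged 37.3 TPM in 4OHT libraries and 45.2 TPM in DMSO libraries, and KRT15 1.58 and 1.77 TPM. The 6 markers of HEK293 cells, in which the vector was packaged, summed to 25.7 to 28.3 TPM in 4OHT libraries and 0.754 to 1.67 TPM in DMSO libraries, from NEFL and NEFM, with LIN28B, SIX3 and DLK1 at or near 0. The 8 endothelial markers summed to 2.22 to 3.87 TPM in 4OHT libraries and 2.69 to 2.94 TPM in DMSO libraries, the 7 immune markers to 59.7 to 67.3 TPM in 4OHT libraries and 60.1 to 90.5 TPM in DMSO libraries, mostly from CD68, the 6 melanocyte markers to 6.51 to 6.82 TPM in 4OHT libraries and 8.59 to 9.55 TPM in DMSO libraries, and the 9 markers of smooth muscle and pericytes to 445 to 450 TPM in 4OHT libraries and 414 to 431 TPM in DMSO libraries. Of these 9, 7 were compared, and 3 were higher and 3 lower. KCNJ8, among the lower, reached the 1 TPM level only through the DMSO libraries. RGS5, a pericyte marker, averaged 24.6 ± 3.99 TPM in 4OHT libraries and 3.30 ± 0.514 TPM in DMSO libraries. CNN1, a contractile marker, averaged 5.57 ± 0.228 TPM in 4OHT libraries and 36.1 ± 2.47 TPM in DMSO libraries. The part of such cells in the HOX differences was not tested.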

How the data were processed

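The expression values are TPM as deposited by the authors, in a table of 59050 entries named by gene symbol. The submitters' processing notes name StringTie, STAR, Trim Galore 0.6.6 and the build GRCh38. The annotation, the strand setting and any scaling of libraries to each other were not given in the sources used here. The column of DMSO replicate 3 is TPM as deposited too, except that 1 value lay slightly below 0 and was set to 0. Per the labels' protocols, each library used 1 µg of total RNA. TPM keep no read depth, so no detection limit was computed.

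The comparison took every gene that averaged 1 TPM or more, 15272 in all. On log2(TPM + 1), lmFit and trended eBayes of limma 3.58.1 (R 4.3.3) gave 2-sided p-values, adjusted by the Benjamini-Hochberg method over these genes, with a threshold of 0.05 and no covariates. The procedure was tested on simulated data. Alternatives were median-of-ratios and quantile scaling, filters of 0 and 5 TPM, a pseudocount of 0.1, no variance trend, the replicate number as a block and leaving out each library. Gene models, coordinates and shared 50-base stretches come from GENCODE 29 (GRCh38), and promoters from RefSeq.

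All 39 HOX genes enter the counts, and those of at least 0.1 TPM on average are named. Of each other list, the 4 called genes with the largest change among those of at least 5 TPM and groups that do not overlap were named, and other genes were picked after their values were seen. Some genes that these rules name are not reported here. The HOX genes and the lists were chosen with earlier results of these data known. Several cofactors, regulators and targets were listed for roles known from the mouse.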

Additional observations from a re-analysis of the deposited data

How the results depend on the processing

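The count of 12 HOX genes lower was 7 under quantile normalization, with 1 higher, and 6 at a mean of at least 5 TPM, where 9 HOX genes remained in the comparison. It was 11 under median-of-ratios scaling and with a pseudocount of 0.1, 10 of 39 without a filter, 12 without a variance trend, and 8 to 11 when a library was left out, lowest without 4OHT replicate 1. With the replicate number as a block it was 11. Deviations of same-numbered libraries correlated at 0.05, 0.01 and 0.01, so the numbers do not pair them.

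Among the reported genes not called, the sign of the log2 fold change turned for HOXA11 and HOXB2 under median-of-ratios scaling (0.08 for each), for HOXB2 (0.17) and HOXC9 (0.05) under quantile normalization, and for HOXB2 without 4OHT replicate 3 (0.08) and without DMSO replicate 1 (0.07), its values ranging from -0.11 to 0.08 as each library was left out. In the same way the uncalled HOXA10-AS ranged from -0.13 to 0.19, HOXA11-AS from -0.16 to 0.22 and KMT2A from -0.04 to 0.33. Over all alternatives and reported genes, a call of a single HOX gene was lost 29 times and gained 5 times, and a call of a gene from the other lists was lost 5 times, once each for HOTAIR and HOTTIP and otherwise for TBX4. The causes were not tested.

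Detection depends on the level asked for: HOXC had 7 genes at 0.5 TPM and 8 at 0.1 TPM, HOXB 4 at 0.1 TPM and HOXD 8 at 0.1 TPM. Under median-of-ratios scaling the 4OHT to DMSO ratio of summed TPM was 0.919 for HOXA and 0.846 for all HOX genes, against 0.845 and 0.779 as deposited. Many HOX genes lie below 5 TPM, where TPM give no measure of the reads behind a value.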
